A study of Komagataella phaffii with 26 samples.

Results

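In the methylotrophic yeast *Komagataella phaffii* (formerly *Pichia pastoris*), the RNA of 19 genes, of 5040 gene models in all, rose within 15 min of a shift of glycerol cultures to alkaline medium and was back near its starting level at 60 min. They were chosen by measured values. The change was the mean of log2(RPKM + 1) in a group minus that at time zero of its own course, where RPKM is reads per kilobase of gene model and 1e6 mapped reads. A gene was a member if its mean over 26 libraries was at least 5 RPKM, as in 4966 models, its change was at least 0.9 at 15 min in both glycerol courses, and its change lay between -0.5 and 0.5 at 60 min in both. The 15 min condition took in 156 genes. Of these, 19 met the 60 min condition and are the members, 110 were still above 0.5 at 60 min in both courses, and 27 were neither.

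Cells of the wild-type strain X-33 grew at 28 °C in rich YP medium on either glycerol or glucose, each at 20 g/L, and were then put into fresh medium buffered with 50 mM TAPS. The courses were glucose cells moved to pH 8.0 (8 libraries), glycerol cells moved to pH 8.2 (8) and glycerol cells moved to pH 8.0 (10), each with groups at 0, 15, 30 and 60 min. Groups held 2 libraries, save glycerol at pH 8.0 for 15 min with 4. Time zero was a sample put into medium of pH 5.5 and collected immediately. Since pH 5.5 has no later sample, alkaline pH, handling, fresh medium and elapsed time cannot be told apart. The same stressed culture was sampled at 15, 30 and 60 min, which leaves the times of a course not fully independent. On glycerol at pH 8.0 this cannot hold for all 4 libraries of 15 min, since the later times had 2 each. Libraries held 16.31 to 20.35 M mapped reads (M = 1e6; median 18.57). The members had between 158 and 30954 reads in a library, and mean chi-square per gene between replicate libraries, 1 under counting error alone, was 5.21 to 109.73 over all genes.

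As background, a yeast cell that meets alkaline medium loses the proton gradient that drives nutrient uptake, and calcium, cell wall and pH signalling pathways change the transcription of many genes within minutes. Some RNAs stay up while the stress lasts, and others rise as a pulse that decays. *MET1*, *MUP1*, *MCY1* and *MET4* bear the names of genes of sulfur amino acid metabolism. C4R343 (given by its protein accession) and *PEX28* belong to the peroxisome, the organelle that oxidises fatty acids and methanol in this yeast. *CRH1*, *YPS1* and *MNN2* act at the cell surface or in the secretory pathway. *HIS2*, *GAD1* and *SGA1* encode enzymes of amino acid and carbohydrate metabolism. *ESS1*, *EFM5* and *PWP1* act in the nucleus or in making and modifying the translation machinery. The remaining genes, C4QYG3, C4QZN7, C4R0Z8 and *YBR287W*, have no described function. Roles are those of the *Saccharomyces cerevisiae* genes of the same names or of the descriptions deposited with the data.

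The glycerol libraries of 0, 15 and 60 min chose the members, so their values are a description. At 15 min the changes ran from 0.92 to 2.08 at pH 8.0 (median 1.35) and from 0.91 to 2.25 at pH 8.2 (median 1.31). The 15 min condition was met by 3.1% of the 5034 genes that passed the filter on low values. At 60 min the medians were 0.16 at pH 8.0 and 0.07 at pH 8.2. Just inside the 15 min limit lay C4QYG3 (0.906 at pH 8.2), *ESS1* (0.915 at pH 8.0) and *MUP1* (0.921 at pH 8.2), and just outside it *VPS70* (0.895), C4R4K6 (0.882) and PAS_chr1-1_0293 (0.869). Just inside the 60 min limits, all at pH 8.0, lay *SGA1* (0.493), *GAD1* (-0.488) and C4R343 (-0.474), and just outside them *HYR1* (0.515 at pH 8.2), *CTA1* (0.54 at pH 8.0) and *SAC7* (0.548 at pH 8.2).

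Some glycerol libraries stood apart from their replicates in genes next to 2 of the members. *HYR1*, a thiol peroxidase gene beside *ESS1*, had 1941 and 1943 RPKM in replicates 1 and 2 of glycerol at pH 8.0 after 15 min, and 490 RPKM in each of replicates 3 and 4. *YAK1*, a protein kinase gene beside *PEX28*, had 108 and 105 RPKM in replicates 1 and 2, and 18.7 and 21.3 RPKM in replicates 3 and 4. At pH 8.2 after 15 min, replicate 2 was the higher, with 1978 RPKM of *HYR1* and 100.2 RPKM of *YAK1*, and replicate 1 had 481 and 18.8 RPKM of these genes. Other members differed between the pairs at pH 8.0 as well, in either direction. C4QYG3 changed by 2.09 in replicates 1 and 2 and by 1.24 in replicates 3 and 4, and *EFM5* by 0.92 and 1.42. The members were chosen with these same libraries, and meeting the 15 min condition does not measure a split, so the next counts are a description. The 15 min condition was met by 18 of the 19 in replicates 1 and 2 at pH 8.0 taken alone and by 17 in replicates 3 and 4, and by 16 in replicate 2 and 18 in replicate 1 at pH 8.2. *PEX28* and *ESS1* differed in the direction of the split in both courses. The change of *PEX28* was 2.06 in replicates 1 and 2 and 0.97 in replicates 3 and 4 at pH 8.0, and 2.92 in replicate 2 and 1.16 in replicate 1 at pH 8.2. That of *ESS1* was 1.27 in replicates 1 and 2 and 0.56 in replicates 3 and 4 at pH 8.0, and 1.44 in replicate 2 and 0.56 in replicate 1 at pH 8.2. Without replicates 1 and 2, *ESS1* and C4QZN7 would not have been members, and without replicates 3 and 4, C4R0Z8 would not. C4QYG3, *MUP1* and *MCY1* went the other way at pH 8.2, with changes of 0.43, 0.55 and 1.10 in replicate 2, against 1.38, 1.29 and 1.70 in replicate 1.

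**Figure D1:**
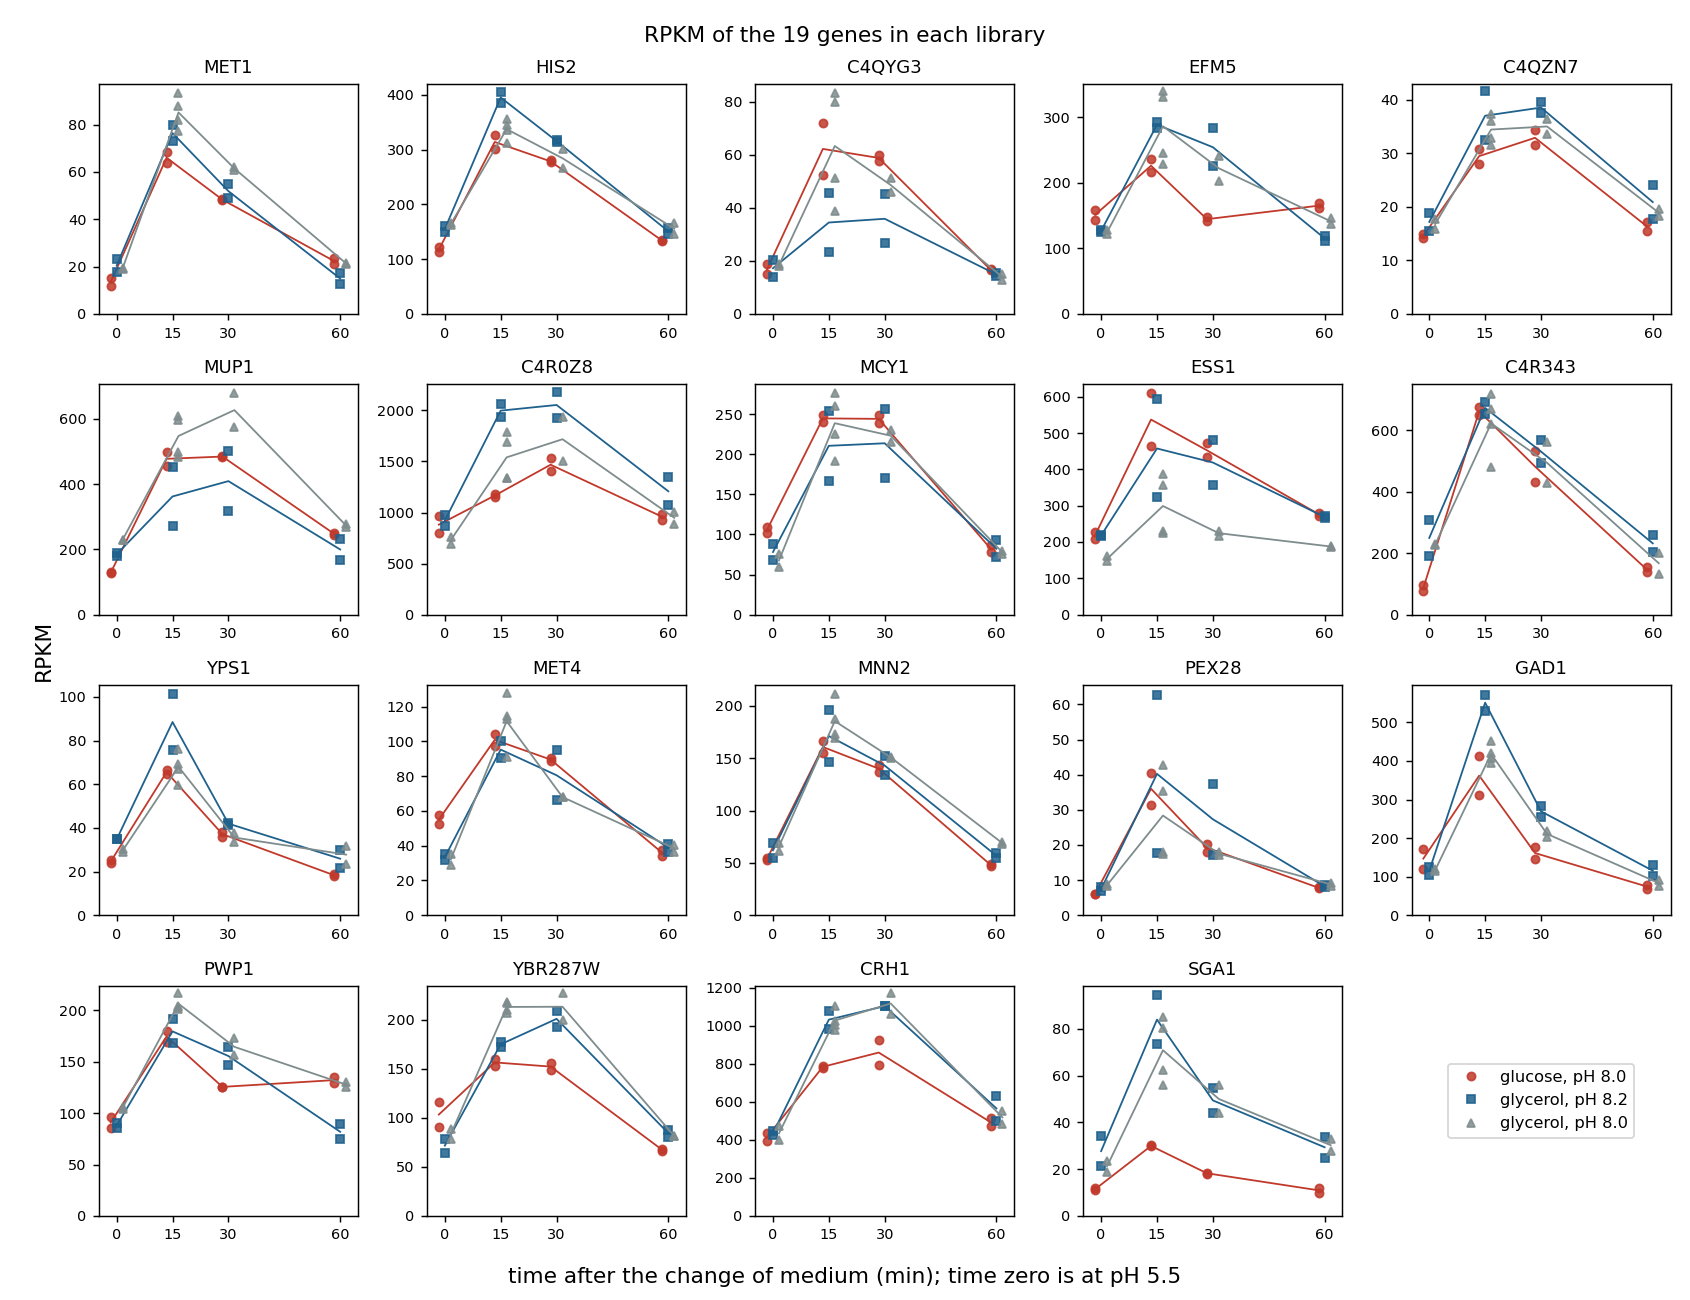
RPKM (vertical axis, from 0) of each of the 19 genes against time (horizontal axis, min), with 1 point per library and lines through the group means; points of the 3 courses are set slightly apart at each time. In every panel and course the group mean at 15 min lies above that at time zero, and no course has its highest group mean at 60 min. On glycerol the rule for members required the rise at 15 min and the return at 60 min.

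The glucose libraries had no part in the choice of members beyond the mean RPKM of at least 5, so they test the pulse on another carbon source. All 19 members rose on glucose at 15 min. The log2 changes ran from 0.41 to 2.93 with a median of 1.30, beside -0.05 over all genes tested. In limma, with Benjamini-Hochberg adjustment over all genes, all 19 passed an adjusted p of 0.05, where 14.1% of all genes were called higher and 20.4% lower. Of the members, 12 rose at least 2-fold (a log2 change of at least 1 with an unadjusted p below 0.01 as well), as did 2.6% of all genes. At 30 min 17 were still higher and 0 lower, against 18.6% and 14.6% of all genes, and the median change was 1.05. *EFM5* (-0.06) and *GAD1* (0.15) did not pass at 30 min. Of those that did, *SGA1* lost its call without any 1 of the 4 libraries compared (adjusted p from 0.0811 to 0.128), and *PEX28* without replicate 2 of 30 min or either library of time zero (0.0515 to 0.0679).

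At 60 min on glucose, 4 members were higher than at time zero, 4 were lower and 11 were not called, with a median change of 0.13 beside 0.10 over all genes. The 4 in each direction make 21.1% of the members, beside 23.4% of all genes called higher and 11.1% called lower. With the glucose course fitted alone, *ESS1* (0.34, adjusted p = 0.0334), *CRH1* (0.25, adjusted p = 0.04) and *HIS2* (0.18, adjusted p = 0.0411) were called higher at 60 min as well. A p above the threshold does not show that the other 11 were back at their level of time zero. The direct difference between 60 and 15 min was negative in every member, from -2.26 to -0.28 with a median of -1.38. It passed as lower in 18, where 11.3% of all genes were called lower and 32.8% higher, and 12 fell at least 2-fold, as did 1.49% of all genes. The member that did not pass was C4R0Z8 (-0.28, SE 0.15, adjusted p = 0.128 in limma). It passed with a replicate block (adjusted p = 0.012), with the glucose course fitted alone (0.0212) and with median-ratio scaling (0.0391). *EFM5* lost this call without replicate 2 of 15 min or either library of 60 min (adjusted p from 0.0556 to 0.123), and *ESS1* without replicate 1 of 15 min (0.0591). Of the 110 early risers still up on glycerol at 60 min, 99 were called higher at 15 min and 83 at 60 min, and 42 were called lower at 60 than at 15 min, with a median difference of -0.26. The difference between these genes and the members was not tested.

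**Figure D2:**
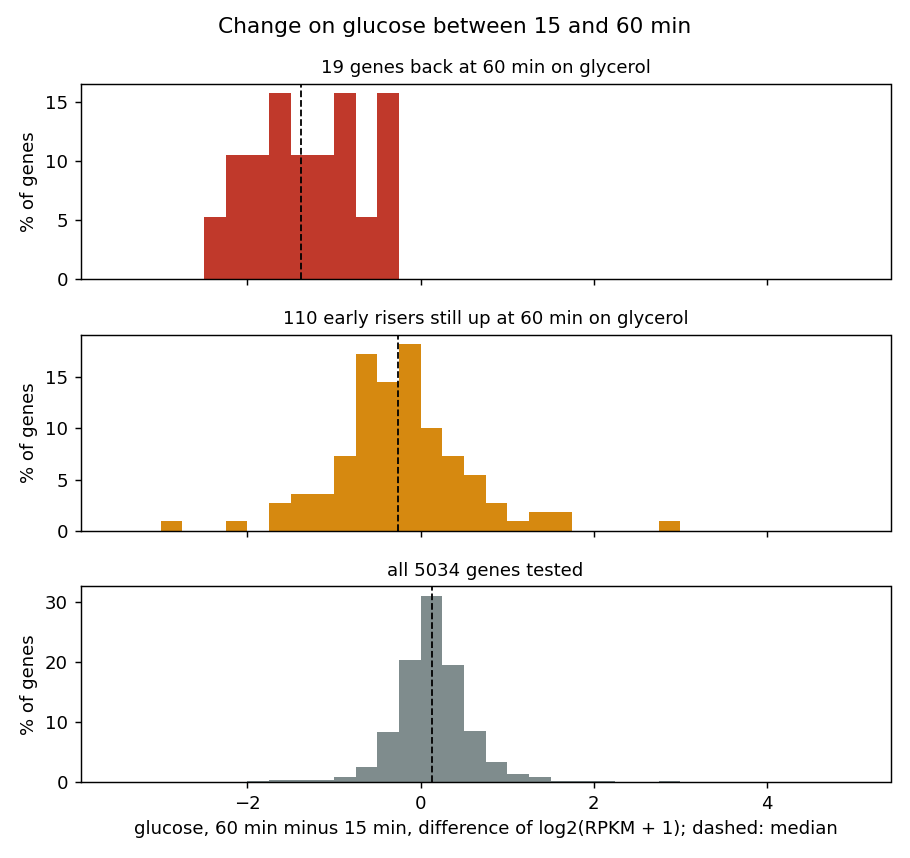
Share of genes (vertical axis, %) by the difference between 60 and 15 min on glucose (horizontal axis, log2), for the 19 members, the 110 early risers still up on glycerol and all 5034 genes tested; dashed lines are medians. The members lie wholly below 0 with a median of -1.38, while the medians of the others are -0.26 and 0.13.

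**Figure D3:**
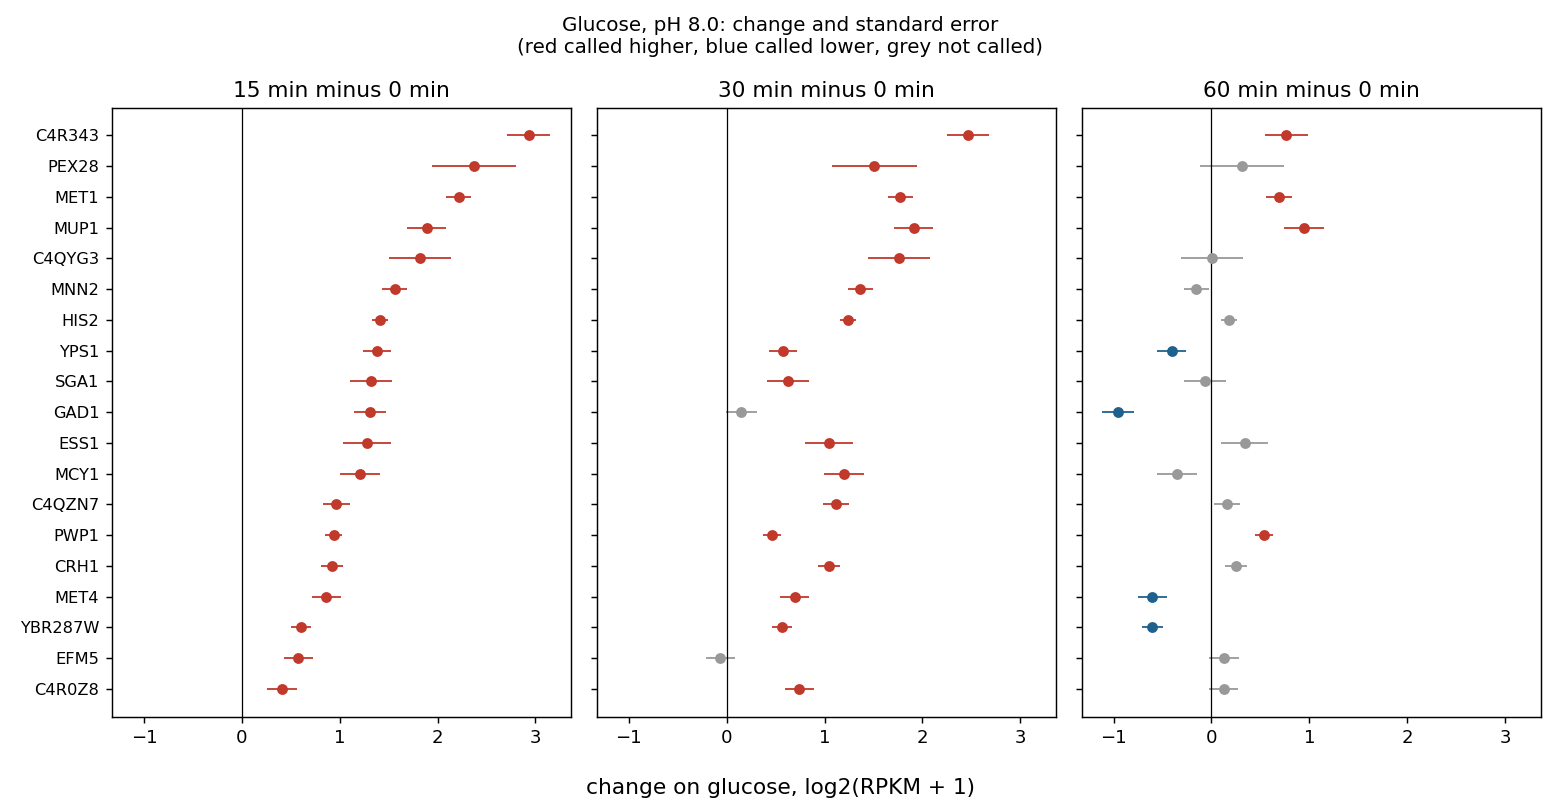
Change on glucose from time zero (horizontal axis, log2) at 15, 30 and 60 min for each member, with its standard error from limma; red points were called higher, blue points lower and grey points neither. All 19 are red at 15 min, 17 at 30 min and 4 at 60 min, when 4 are blue.

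The widest rise on glucose was that of C4R343, a peroxisomal 2,4-dienoyl-CoA reductase, an auxiliary enzyme of beta-oxidation that prepares unsaturated fatty acids for breakdown (chromosome 2, 2357846 to 2358685, plus strand). On glucose it had 77.0 and 95.6 RPKM at time zero, 675 and 648 RPKM at 15 min, 432 and 531 RPKM at 30 min, and 154 and 140 RPKM at 60 min. The change at 15 min was 2.93 (SE 0.22, adjusted p = 5.33e-09 in limma), and the gene was still higher at 60 min (0.77, adjusted p = 0.0101), though not without replicate 1 of 60 min (adjusted p = 0.0737) or of time zero (0.0952). Its level at 15 min on glycerol was much the same, 652 to 692 RPKM at pH 8.2 and 481 to 717 RPKM at pH 8.0. The courses differed at time zero, where it had 77.0 and 95.6 RPKM on glucose, against 192 to 307 RPKM on glycerol. *PEX28*, which encodes a membrane peroxin with a part in peroxisome number and size, had the lowest mean level of the members (chromosome 3, 1706282 to 1707823, plus strand). On glucose it had 6.07 and 6.12 RPKM at time zero, 40.5 and 31.5 at 15 min, 18.1 and 20.4 at 30 min, and 7.99 and 7.63 at 60 min. The change at 15 min was 2.37 (SE 0.43, adjusted p = 0.000283), and *PEX28* was the member with the largest SE.

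The list of peroxisome and fatty acid oxidation genes held 11 genes, C4R343 and *PEX28* included. On glucose 7 of the 11 were called higher and 3 lower at 15 min, and 8 higher and 0 lower at 60 min. Between 15 and 60 min 4 rose and 3 fell, with a median of -0.06. Of the 9 that are not members, 5 were higher and 3 lower at 15 min, and 4 rose and 1 fell between 15 and 60 min. Outside the members, the catalase gene *CTA1*, whose product removes hydrogen peroxide, rose by 4.47 at 15 min (adjusted p = 0.000102) and stood at 1.01 at 60 min (adjusted p = 0.309). C4QYG9 rose by 2.59 at 15 min (adjusted p = 7.64e-10) and was still higher by 2.52 at 60 min. *SPS19*, which bears the name of a dienoyl-CoA reductase gene, the enzyme also described for C4R343, fell by 1.64 at 15 min (adjusted p = 6.72e-05). The gene lists cover only genes that carry a deposited description, which were chosen for changing in these same samples, so their counts are no independent evidence of direction.

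The 4 sulfur members were all called higher at 15 min on glucose and all called lower at 60 than at 15 min. *MET1* encodes the methyltransferase that starts siroheme synthesis, and siroheme is the cofactor of sulfite reductase (chromosome 1, 145989 to 147617, minus strand). It had 15.0 and 11.98 RPKM on glucose at time zero, 68.2 and 63.7 at 15 min, 48.0 and 48.5 at 30 min, and 23.6 and 21 at 60 min. Its change was 2.22 at 15 min (SE 0.13, adjusted p = 1.81e-10 in limma) and 0.69 at 60 min (adjusted p = 0.000403). *MUP1*, the high affinity methionine permease gene (C4R0E7; chromosome 2, 651824 to 653512, minus strand), had 130 and 126 RPKM at time zero, 499.6 and 456 at 15 min, 486 and 484 at 30 min, and 244 and 251 at 60 min. It rose by 1.89 at 15 min (SE 0.20, adjusted p = 6.32e-07) and had the largest rise of the members at 60 min (0.94, adjusted p = 0.00123). The name *MUP1* is not borne by this gene model alone, and no other model of that name was a member.

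*MCY1*, named after a cysteine synthase-like gene, had 109 and 102 RPKM on glucose at time zero, 249 and 240 at 15 min, 239 and 249 at 30 min, and 77.7 and 87.2 at 60 min. Its libraries of 60 min lay below those of time zero, but the difference of -0.36 did not pass (adjusted p = 0.191). It passed as lower with a replicate block (adjusted p = 0.00766) and with the glucose course fitted alone (0.00298). *MET4*, named after the bZIP activator of sulfur genes in *S. cerevisiae*, had 57.4 and 52.6 RPKM at time zero, 104 and 97.5 at 15 min, 88.9 and 90.1 at 30 min, and 34.0 and 37.6 at 60 min. It rose by 0.86 at 15 min (adjusted p = 0.000154) and was lower than at time zero by 60 min (-0.60, adjusted p = 0.00364). On glycerol, its libraries of 60 min were instead above time zero, with 41.2 and 36.6 RPKM at 60 min of pH 8.2 against 31.6 and 35.1 RPKM at its time zero, and 40.5 and 36.5 RPKM at 60 min of pH 8.0 against 35.3 and 28.8 RPKM at its time zero. The sulfur members differed in timing as well. At 30 min on glucose, 101.2% of the 15 min change of *MUP1* was left and 99.7% of that of *MCY1*, against 80.4% for *MET4* and 80.0% for *MET1*.

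The list of sulfate assimilation, methionine and cysteine genes held 17 genes, including *MET1*, *MUP1* and *MCY1*. On glucose 15 of them were called higher at 15 min and 1 lower, with a median change of 1.20. At 60 min 6 were higher and 2 lower (median 0.52), and between 15 and 60 min 11 fell and 2 rose (median -0.89, beside 0.13 over all genes). Of the 14 that are not members, 12 were higher and 1 lower at 15 min. Between 15 and 60 min 8 of these fell and 2 rose (median -0.82). Over all genes 14.1% were called higher at 15 min, and 11.3% lower at 60 than at 15 min. Among those outside the members, *MET17*, the sulfhydrylase gene that builds sulfide into homocysteine, rose by 2.14 at 15 min (adjusted p = 0.000238) and stood at -0.58 at 60 min (adjusted p = 0.253). *MET14*, which encodes adenylylsulfate kinase, rose by 1.41 (adjusted p = 0.00125), and *MET32*, named after a zinc finger regulator of sulfur genes, by 1.40 (adjusted p = 0.000447). Both missed the 60 min condition on glycerol at pH 8.0, with 0.78 for *MET14* and 0.59 for *MET32*, as did *MET17* with 0.59.

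The surface and secretory members rose by 0.92 to 1.56 on glucose. *CRH1*, which encodes a transglycosidase that links chitin to glucan in the wall, was among the most abundant members, with 394 and 435 RPKM at time zero, 778 and 789 at 15 min, 791 and 926 at 30 min, and 470 and 516 at 60 min. Its rise at 15 min was 0.92 (SE 0.11, adjusted p = 3.05e-06 in limma). *MNN2*, which encodes a mannosyltransferase that branches the mannan of glycoproteins, had 54.9 and 52.6 RPKM at time zero, 166 and 155 at 15 min, 136 and 144 at 30 min, and 47.1 and 49.4 at 60 min, a rise of 1.56 (adjusted p = 1.91e-08) that was followed by a fall of 1.72 between 15 and 60 min. Another gene named *YPS1* (C4R8B8) was not a member, though it became one at a 60 min limit of 0.6. The member *YPS1*, a gene for an aspartic protease held at the membrane by a lipid anchor (C4R458), kept the least of its 15 min change at 30 min by the median of the 3 courses. It had 25.4 and 23.8 RPKM on glucose at time zero, 66.6 and 64.5 at 15 min, 36.0 and 38.2 at 30 min, and 18.7 and 17.9 at 60 min. At 30 min 41.8% of its 15 min change was left on glucose, 20.3% on glycerol at pH 8.2 and 21.9% at pH 8.0. At 60 min it was called lower than at time zero (-0.41, adjusted p = 0.0393), a call that was lost without any 1 of the 4 libraries compared (adjusted p from 0.0943 to 0.157).

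The list of cell wall and surface genes held 14 genes, *MNN2* and *CRH1* among them. On glucose 8 were called higher and 3 lower at 15 min, 9 higher and 1 lower at 60 min, and between these times 6 rose and 6 fell. Of the 12 that are not members, 6 were higher and 3 lower at 15 min, and 6 rose and 4 fell between 15 and 60 min. *GAS1* (C4QVL5), for a glucan-elongating enzyme, rose by 1.81 at 15 min (adjusted p = 6.73e-10) and was higher by 2.47 at 60 min (adjusted p = 5.88e-12). *TOH1* rose by 2.22 at 15 min and by 1.05 at 60 min (adjusted p = 0.000148), and *RIM101*, named after the pH-responsive transcription factor, by 1.63 and 1.36 (adjusted p = 2.2e-08 at 60 min). At 60 min on glucose *CRH1* (0.25, adjusted p = 0.0921 in limma) and *MNN2* (-0.15, adjusted p = 0.376) were not called. The libraries of *CRH1* at 60 min still lay above those of time zero. With the glucose course fitted alone *CRH1* was called higher (adjusted p = 0.04). The difference between these members and the genes outside was not tested.

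Among the enzymes of amino acids and carbohydrates, *GAD1*, for the glutamate decarboxylase that makes gamma-aminobutyric acid, swung the most. On glucose it had 121 and 173 RPKM at time zero, 311 and 413 at 15 min, 146 and 176 at 30 min, and 69.2 and 79.6 at 60 min. It rose by 1.31 at 15 min (SE 0.16, adjusted p = 4.14e-06 in limma) and was lower than at time zero by 60 min (-0.95, adjusted p = 0.000153), the largest fall between 15 and 60 min of any member (-2.26). Of its 15 min change, 11.6% was left at 30 min on glucose, 54.2% on glycerol at pH 8.2 and 46.2% at pH 8.0. *HIS2*, for the histidinol phosphatase of histidine synthesis, had 122 and 114 RPKM at time zero, 326 and 302 at 15 min, 277 and 281 at 30 min, and 133 and 135 at 60 min, and its rise of 1.41 was the one with the smallest SE (0.08). *SGA1*, for a glucoamylase that degrades glycogen, rose by 1.32 (adjusted p = 9.44e-05) at levels far below those on glycerol. It had 29.7 and 30.1 RPKM at 15 min on glucose, against 73.6 to 94.3 RPKM at pH 8.2 and 55.8 to 85.1 RPKM at pH 8.0 on glycerol.

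*ESS1*, for a prolyl isomerase that acts on the tail of RNA polymerase II, had 228 and 209 RPKM on glucose at time zero, 611 and 463 at 15 min, 472 and 433 at 30 min, and 272 and 281 at 60 min. Its rise at 15 min was 1.28 (SE 0.24, adjusted p = 0.000439 in limma). *EFM5*, named after a methyltransferase of a translation elongation factor in *S. cerevisiae* but described in the deposited table as a DNA methyltransferase, rose by 0.58 (adjusted p = 0.00522), with 216 and 236 RPKM at 15 min against 158 and 144 RPKM at time zero. The call was lost without replicate 2 of either time (adjusted p = 0.053 and 0.0517). Unlike on glycerol, nothing of this was left at 30 min on glucose, with 142 and 148 RPKM. *PWP1*, for a WD-repeat protein of ribosome assembly, had 96.3 and 85.5 RPKM at time zero, 169 and 180 at 15 min, 126 and 125 at 30 min, and 135 and 129 at 60 min. It was still higher at 60 min (0.54, adjusted p = 0.000116).

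Of the members with no described function, C4R0Z8 was the most abundant gene of the 19 and rose the least on glucose. It had 799 and 964 RPKM at time zero, 1154 and 1178 at 15 min, 1405 and 1532 at 30 min, and 927 and 987 at 60 min. Its change at 15 min was 0.41 (SE 0.15, adjusted p = 0.039 in limma), and the call was lost without either library of 15 min or without replicate 1 of time zero (adjusted p from 0.103 to 0.293). C4QYG3 rose by 1.82 (SE 0.32, adjusted p = 0.000185) and was not called at 60 min (0.003, SE 0.32, adjusted p = 0.995). It then had 16.6 and 16.8 RPKM, between the 18.7 and 14.9 RPKM of time zero. C4QZN7 rose by 0.97 (adjusted p = 1.55e-05). *YBR287W* rose by 0.60 (adjusted p = 0.000155) and was lower than at time zero by 60 min (-0.60, adjusted p = 0.00016), with 65.9 and 68.5 RPKM against 90.9 and 116 RPKM.

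The pulse was not equally sharp in all members. The highest group mean fell at 15 min in 15 members on glucose, in 12 on glycerol at pH 8.2 and in 15 at pH 8.0, and at 30 min in the others. C4QZN7, *MUP1*, C4R0Z8 and *CRH1* were highest at 30 min in all 3 courses. *YPS1*, *GAD1* and *SGA1* had lost the most by 30 min, by the median of the 3 courses. The 30 min values on glycerol are described with no test, because time zero was used in the choice. The change at 30 min was at least 0.9 in 16 members at pH 8.2 and in 13 at pH 8.0, beside 5.4% and 4.39% of all genes.

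**Figure D4:**
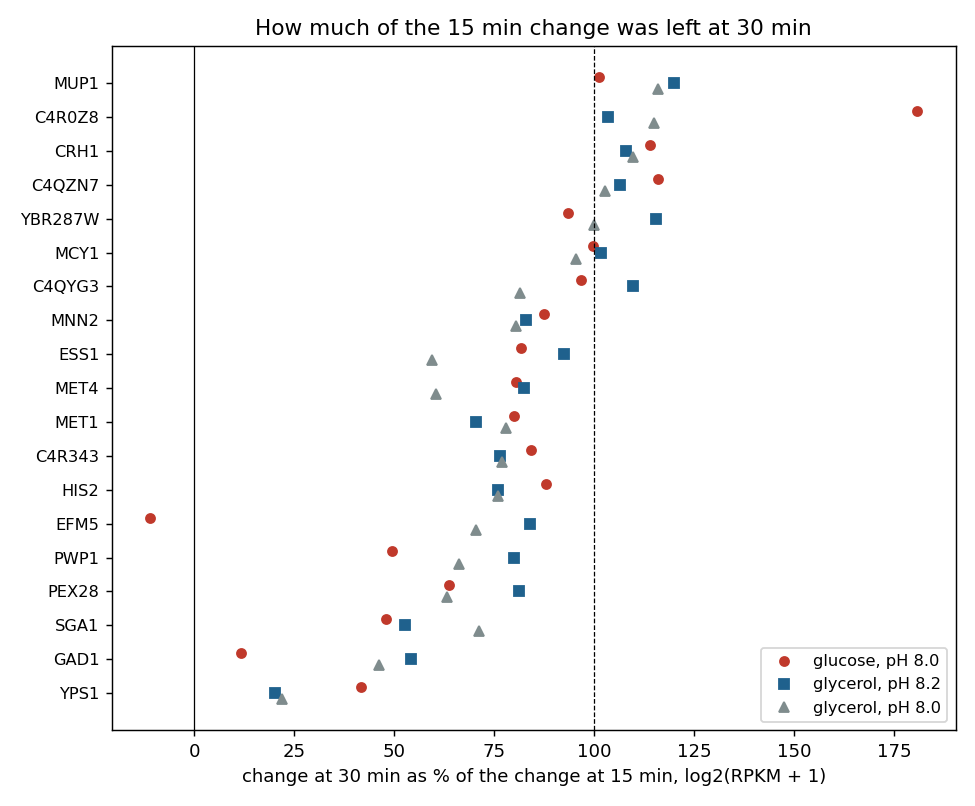
Change at 30 min as a percentage of the change at 15 min (horizontal axis) for each member, with 1 point per course; the dashed line marks 100%. Genes are ordered by the median of the 3 courses, which is lowest for *YPS1* (points at 20.3 to 41.8%); the lowest single point is *EFM5* on glucose, at -11.0%, and the highest is C4R0Z8 on glucose, at 180.7%.

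The 30 min glycerol libraries allow a direct comparison of pH 8.2 with pH 8.0, although the libraries of these courses also bear different code series, so pH and library series cannot be told apart. *ESS1* was higher at pH 8.2, with 358 and 480 RPKM against 231 and 217 RPKM at pH 8.0 (log2 difference 0.88, SE 0.24, adjusted p = 0.0182 in limma). *MUP1* was lower at pH 8.2, with 502 and 317 RPKM against 576 and 679 RPKM at pH 8.0 (-0.65, SE 0.20, adjusted p = 0.0317). The other 17 were not called. With 9.46% of all genes called higher and 9.04% lower, 1 member each way is near the background. The replicates of pH 8.2 stood apart at 30 min as they did at 15 min, with 2713 RPKM of *HYR1* and 138 RPKM of *YAK1* in replicate 2, and 681 and 23.8 RPKM of these genes in replicate 1. *ESS1* was the higher and *MUP1* the lower in replicate 2, and the part of this split in both calls was not tested. At time zero the same genes already differed in the same direction between the courses, by 0.50 for *ESS1* and -0.31 for *MUP1*. Both calls were lost without replicate 2 of pH 8.2 or without replicate 2 of pH 8.0, and the call on *MUP1* was also lost when only the glycerol courses were fitted (adjusted p = 0.0761).

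The members were spread over the 4 chromosomes, with 4 on chromosome 1, 6 on chromosome 2, 6 on chromosome 3 and 3 on chromosome 4. The nearest start sites of any pair of members lay 36261 bases apart, and none of their gene models overlapped another. Their median length was 1410 bases, beside 1197 over all models. They were more abundant than the typical gene, with a median mean level of 141 RPKM against 53.8 RPKM over all genes, and 9 of 19 were among the 20% of genes with the highest means. In 12 the gene upstream was on the other strand, so that both start from a shared intergenic region. The share of such genes over all models was not counted, so this is not a trait of the members.

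On glucose at 15 min, 7 of the 19 upstream genes were called higher, a share of 36.8% beside 15.2% for the upstream genes of all genes tested. *HYR1* lies 165 bases from *ESS1* on the other strand, and on glucose it had 304 and 311 RPKM at time zero, 1680 and 1103 at 15 min, 2219 and 1879 at 30 min, and 639 and 647 at 60 min. *NCE103*, a carbonic anhydrase gene 935 bases from *SGA1*, had 289 and 318 RPKM at time zero, 1155 and 1438 at 15 min, 647 and 574 at 30 min, and 205 and 161 at 60 min. On glucose *NCE103* was thus highest at 15 min, as *SGA1* was. On glycerol the change of *NCE103* at 15, 30 and 60 min was 2.09, 2.14 and 1.19 at pH 8.0, and 1.98, 1.91 and 1.25 at pH 8.2. That of *SGA1* at 60 min was 0.49 at pH 8.0 and 0.10 at pH 8.2. *PDR5*, a multidrug transporter gene 900 bases from *HIS2*, rose by 1.19 on glucose at 15 min and was still higher by 0.73 at 60 min (adjusted p = 0.00135 in limma). At 60 min *HIS2* was not called (0.18, adjusted p = 0.0875), but it was called higher with the glucose course fitted alone (adjusted p = 0.0411). The difference between *PDR5* and *HIS2* was not tested. *YAK1* ends 136 bases before *PEX28* on the same strand. On glucose it had 15.14 and 14.15 RPKM at time zero, and 63.3 and 51.66 at 15 min. Its change of 1.90 did not pass in limma (adjusted p = 0.068). That fit took the spread of a gene over all 26 libraries, the split glycerol libraries included. In the libraries with high *YAK1*, *PEX28* was high too, with 42.7 and 35.3 RPKM in replicates 1 and 2 of glycerol at pH 8.0 after 15 min, against 17.4 and 18.1 RPKM in replicates 3 and 4. *PEX28* was not bound to *YAK1* in every library, since on glucose at 30 min *YAK1* stayed at 77.3 and 75.2 RPKM while *PEX28* had 18.1 and 20.4 RPKM. The libraries do not keep the strand, and the part of reads from beyond the ends of the neighbouring models in these values was not tested.

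**Figure D5:**
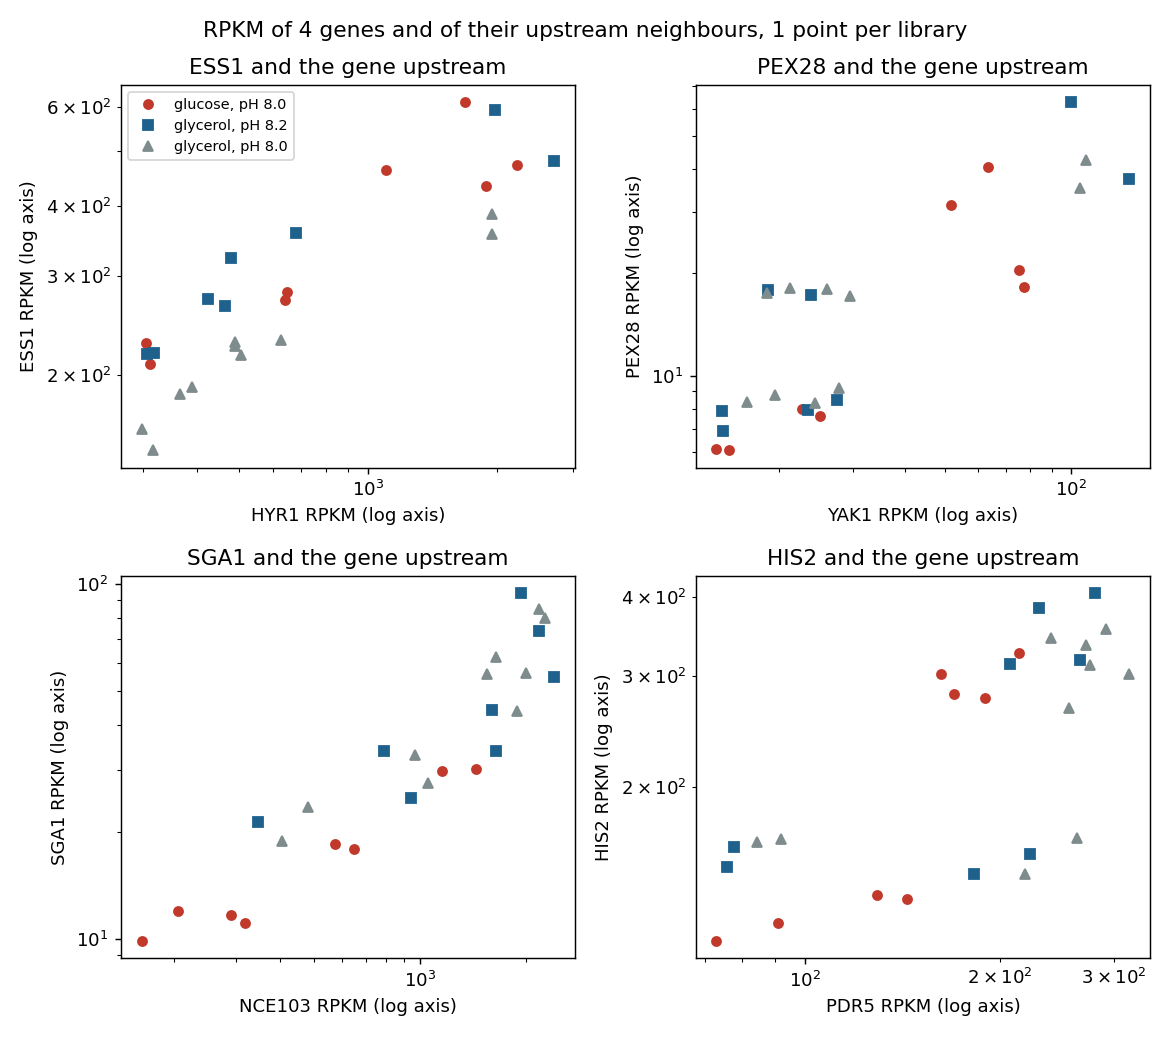
RPKM of *ESS1*, *PEX28*, *SGA1* and *HIS2* (vertical axes, log) against RPKM of the gene upstream of each (horizontal axes, log), with 1 point per library in the colour of its course. The lowest and highest *SGA1* values lie at low and high *NCE103*, but libraries with like *NCE103* differ in *SGA1*, and *HIS2* at 60 min has low values at high *PDR5*.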

How the data were processed

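The authors made non-directional poly-A libraries, mapped single reads with Bowtie2 to the GS115 assembly, and deposited RPKM for 5040 gene models, computed with SeqMonk. A second deposited table holds the authors' log2 fold changes and p-values, which were not used here; only its gene names (507) and descriptions (772) were. All 5040 models match assembly ASM2700v1 in coordinates. The reads behind each library were recovered from the RPKM steps (100% of values whole to within 0.05 read).

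Values were taken as log2(RPKM + 1), which understates the change of low genes. limma 3.58.1 (R 4.3.3) fitted 12 group means over 26 libraries, with 14 residual degrees of freedom and a trend, for the 5034 genes with at least 1 RPKM in at least 2 libraries. The study's own test was a count test; limma on the log scale was used because the deposited unit is RPKM, and the recovered reads served only for depth. P-values carry the Benjamini-Hochberg adjustment over these genes and measure only the spread between these libraries. The fit was tested on simulated data. The members and gene lists were chosen with earlier results of these data known. The rule for named genes took members in a list, the 10 most abundant, the 10 largest and 5 smallest changes on glucose at 15 min, members called between pH values, the 3 genes nearest each limit, and up to 3 other genes a list; upstream genes and the remaining members were named after their values were seen. Alternatives were 2 other pseudocounts, no filter, median-ratio scaling, the compared courses alone, a replicate block and leaving out each library. Promoter motifs and protein sequences were not analysed here.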

Additional observations from a re-analysis of the deposited data

Results flagged for a closer look

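At 60 min the libraries of some members lay wholly on opposite sides of time zero in different courses; none of these differences between courses was tested. *MET4* was below time zero on glucose (-0.60) and above it in both glycerol courses. *YBR287W* was below on glucose (-0.60) and above at pH 8.2 on glycerol (0.24). *MCY1* was below on glucose (-0.36) and above at pH 8.0 on glycerol (0.21). C4R343 was above on glucose (0.77) and below at pH 8.0 on glycerol (-0.47). *MET1* was above on glucose (0.69) and at pH 8.0 (0.14), and below at pH 8.2 (-0.43). *EFM5* was above on glucose (0.13) and at pH 8.0 (0.18), and below at pH 8.2 (-0.13). With 2 libraries a group, and with glycerol values at 60 min held between limits by the choice of members, these are descriptions. Among the 4 libraries of glycerol at pH 8.0 after 15 min, 0 of 19 members had a single library far enough from the others to pass Dixon's test for outliers, a test that does not see a split into pairs.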

How the results depend on the processing

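The number of members was 14 to 25 under other 15 min limits, 14 at a 60 min limit of 0.4 and 29 at 0.6, 26 under median-ratio scaling (15 shared), and 18 when the baseline pooled both glycerol courses (13 shared). Leaving out 1 library gave 15 to 24. Of the alternatives chosen after seeing the data, leaving out the first libraries of pH 8.2 gave 12 and the second libraries 20. The calls on glucose were counted for the same 19 genes. Leaving out 1 library gave 17 to 18 higher at 15 min, 15 to 16 at 30 min, 3 to 4 higher and 3 lower at 60 min, and 17 lower at 60 than at 15 min. When only the courses compared were fitted, 7 were higher at 60 min and 19 lower at 60 than at 15 min. With a replicate block 19 were called at 15 min, 5 were lower at 60 min and 19 fell between 15 and 60 min. The numbers are not stated to mark shared cultures. Same-numbered glucose libraries deviated together with r of 0.11 to 0.35 across genes. For replicates 1 and 2 of glycerol at pH 8.0, r was -0.04 to 0.08 for pairs of times with 15 min, and 0.07 to 0.63 for the other pairs. Replicates 3 and 4 had no library of the same number at another time. For pH 8.2 against pH 8.0 at 30 min, leaving out 1 library gave 0 to 1 in each direction. The lower call (*MUP1*) went to 0 with the glycerol courses alone. It was also 0 with the replicate block, where the difference between courses refers to replicate 1 and not to the group means.

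Of 950 single values under an alternative, 898 kept direction and call, 30 lost and 8 gained the call, and 14 that were never called changed sign. With the replicate block the difference between courses refers to the level of replicate 1, not to the group means. It was 0.21 for *MCY1* and -0.08 for C4R343. These values are among those counted above, but they do not test the difference of group means. Without 1 library, the pH difference ran from -0.04 to 0.48 for *MET4*, -0.17 to 0.01 for *MNN2*, -0.19 to 0.16 for *SGA1*, -0.39 to 0.20 for *MCY1*, -0.03 to 1.05 for *PEX28*, -0.09 to 0.05 for *CRH1*, -0.08 to 0.31 for C4R343 and -0.18 to 0.01 for *YBR287W*. On glucose *GAD1* ran from -0.11 to 0.41 at 30 min, *SGA1* from -0.19 to 0.06 at 60 min and C4R0Z8 from -0.01 to 0.26 at 60 min. Causes were not tested. Scaling by median ratios moved the median of all genes at 60 minus 15 min on glucose to -0.01, against 0.13. Motifs on the gene strand alone were not run.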
